A study of Rattus norvegicus with 48 samples.

Results

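The comparison described here is brain cortex 48 h after 18 mg/kg RDX against brain cortex 48 h after 3 mg/kg RDX, with 3 arrays per dose. These 6 arrays were chosen by their sample titles from the 48 arrays of the series. RDX is a nitramine explosive. The animals were male Sprague-Dawley rats that swallowed the compound once, in a capsule, at doses the submitters chose to avoid seizures, and no age is given in the labels. Both groups therefore received RDX and neither is an untreated control. The series also holds cortex at 0, 4 and 24 h and liver at all 4 times. Nothing in the labels ties each array to an animal of its own, so the p-values measure only the spread between arrays, which may be technical. Values are log2 signals of Affymetrix rat expression arrays, on which a difference of 1 is a 2-fold difference in signal.

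RDX is known to bind the chloride channel of the GABA type A receptor, the main inhibitory receptor of the cortex, at the site used by the convulsant picrotoxin. Loss of that inhibition lets pyramidal neurons, the glutamatergic output cells of the cortex, fire in excess. Sodium channels, immediate early genes and inhibitory synapse genes are therefore the gene groups described first, after the largest single changes, followed by glia, vessels and housekeeping machinery.

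The tissue label was checked against marker genes. Snap25, a synaptic vesicle release protein, lay between 13.29 and 13.44 in the 18 mg/kg arrays and between 13.06 and 13.17 in the 3 mg/kg arrays, against 4.72 to 6.58 in the 6 liver arrays of 48 h. Gad1, the GABA-synthesising enzyme of interneurons, lay between 12.61 and 12.74 in the 18 mg/kg arrays and between 12.35 and 12.45 in the 3 mg/kg arrays, against 4.49 to 5.03 in liver. Alb, the serum albumin gene of hepatocytes, did not follow the cortex label evenly. It was 7.23, 13.93 and 14.02 in 18 mg/kg replicates 1, 2 and 3 and 12.19, 9.01 and 7.48 in 3 mg/kg replicates 1, 2 and 3, against 14.29 to 14.37 in liver.

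The arrays differed between doses in RNA integrity, which stands beside every result below. It was read from the AFFX control probe sets as the log2 signal at the 3' end of a transcript minus that at its 5' end, a gap that grows as RNA is broken. The actin gap was 4.61, 2.95 and 4.39 in 18 mg/kg replicates 1, 2 and 3, and 2.11, 2.19 and 2.73 in 3 mg/kg replicates 1, 2 and 3. The GAPDH gap was 4.12, 1.88 and 5.38 in 18 mg/kg replicates 1, 2 and 3, and 1.09, 1.11 and 1.35 in 3 mg/kg replicates 1, 2 and 3. For both controls all 18 mg/kg arrays lay above all 3 mg/kg arrays. Replicate 2 was the 18 mg/kg array nearest to the 3 mg/kg arrays in both.

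The actin gap averaged 3.98 ± 0.903 at 18 mg/kg and 2.34 ± 0.340 at 3 mg/kg (SD, n = 3 each), a difference of 1.64 (exact two-sided permutation p = 0.1). The GAPDH gap averaged 3.79 ± 1.77 at 18 mg/kg and 1.18 ± 0.140 at 3 mg/kg, a difference of 2.61 (exact two-sided permutation p = 0.1). With 3 arrays against 3 there are 20 splits, and 0.1 is the smallest p they allow. The actin 5' signal itself was 6.32, 8.74 and 5.75 in the 18 mg/kg arrays and 9.94, 9.87 and 9.39 in the 3 mg/kg arrays. The hexokinase control, which was dim, went the other way, with a mean gap of 0.330 ± 0.279 at 18 mg/kg and 0.767 ± 0.116 at 3 mg/kg.

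RNA typical of liver also differed between arrays. The mean of 26 hepatocyte transcripts was 5.37, 10.1 and 10.4 in 18 mg/kg replicates 1, 2 and 3, and 7.52, 5.46 and 5.21 in 3 mg/kg replicates 1, 2 and 3. The groups overlapped (exact two-sided permutation p = 0.3). All 26 transcripts had a higher mean at 18 mg/kg, with a median log2 difference of 2.91, and 0 of them passed the limma test, 5 having an unadjusted p under 0.05. Among the 18 mg/kg arrays, replicate 1 had a wide actin gap and little hepatocyte signal, replicate 2 had the narrowest gap and strong hepatocyte signal, and replicate 3 had both a wide gap and strong hepatocyte signal.

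**Figure D1:**
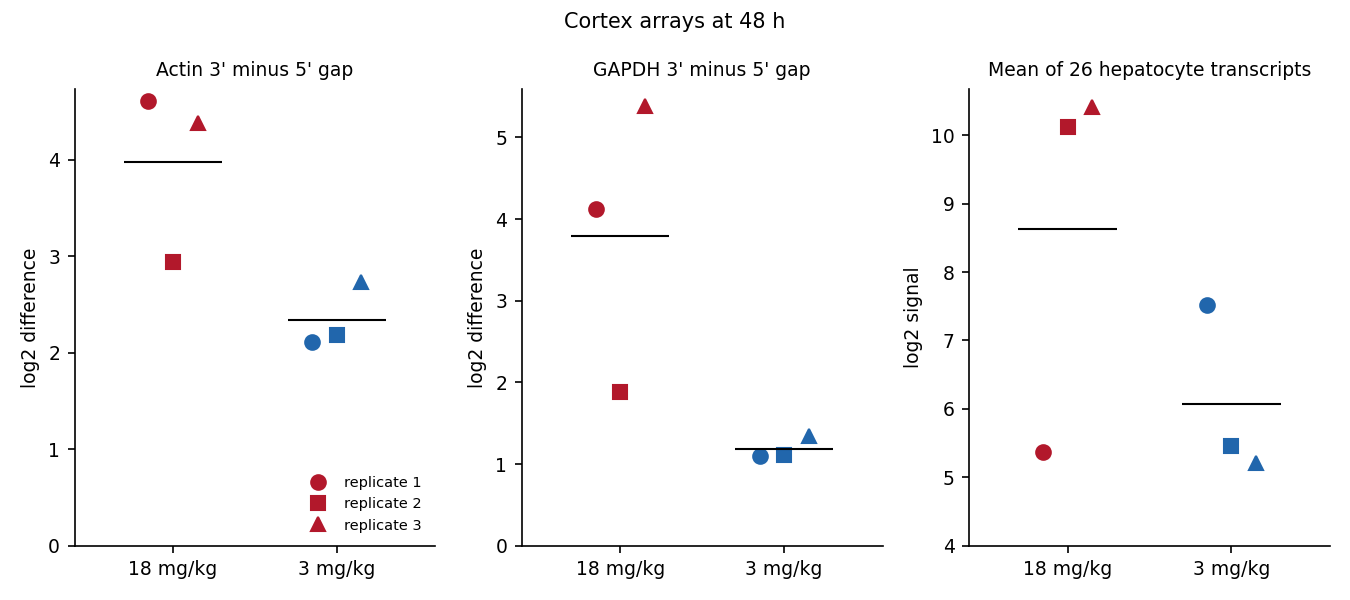
Actin gap, GAPDH gap (3' minus 5' signal, log2) and mean log2 signal of 26 hepatocyte transcripts in each cortex array at 48 h; symbols are replicates and lines are group means. Both gaps were wider in every 18 mg/kg array than in any 3 mg/kg array, whereas hepatocyte signal was above 10 in 18 mg/kg replicates 2 and 3 only.

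In the comparison of 18 with 3 mg/kg at 48 h, 1811 of 31042 probe sets (5.83%) passed an adjusted p of 0.05 in limma, with the spread estimated over 18 cortex arrays of 4, 24 and 48 h. When the 6 arrays of 48 h were fitted alone limma called 0, with 6191 at an unadjusted p under 0.05. Of the 1811, 595 (1.92%) were higher and 1216 (3.92%) lower at 18 mg/kg. Among all probe sets 7620 had an unadjusted p under 0.05. Counted by gene, with the brightest probe set of each, 327 of 14217 genes rose and 575 fell. The median log2 difference over all probe sets was -0.0013, and the called ones had a median size of 0.58 among those higher and 0.74 among those lower. The groups did not overlap in 1792 of the 1811. Over all 31042 probe sets, every 18 mg/kg array lay above every 3 mg/kg array in 3274 (10.5%) and below in 4370 (14.1%).

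The count rests on single arrays. limma called 502 probe sets without 18 mg/kg replicate 1, 5774 without 18 mg/kg replicate 2, and 0 without 18 mg/kg replicate 3 (5439 at an unadjusted p under 0.05). It called 0 when 3 mg/kg replicate 1, 2 or 3 was left out (6234, 5512 and 6759 at an unadjusted p under 0.05). All 1811 kept their direction in each of these fits, which was fixed in advance for the 1792 whose groups did not overlap. With the actin gap as a covariate limma called 0, with 2072 at an unadjusted p under 0.05, and the median size of the 1811 differences was 0.35 in place of 0.68. Because the gap separated the doses at 48 h, such a covariate fit cannot divide the differences between dose and gap. A fit of the arrays with an actin gap of at most 3 kept 1 of 3 arrays at 18 mg/kg, replicate 2, and all 3 at 3 mg/kg. In that fit the median size of the 1811 differences was 0.51. The lone array has no spread of its own, and the spread came from 3 mg/kg arrays alone. At 48 h the arrays correlated at 0.993 to 0.994 within 3 mg/kg and at 0.961 to 0.980 within 18 mg/kg. Adjusted p-values of that fit may therefore be too small, and none under 0.05 is printed.

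The direction of the called differences was set beside the gap in arrays that the comparison did not use. The 6 cortex arrays of 0 h had actin gaps of 2.48, 1.86 and 3.60 in the 18 mg/kg arm and 3.18, 3.60 and 1.88 in the 3 mg/kg arm, and the slope of each probe set's level on that gap was computed over them, a description chosen after values had been seen. The slope was negative in 1187 of the 1216 probe sets that were lower at 48 h (97.6%), with a median of -0.36 log2 per unit of gap. It was positive in 588 of the 595 that were higher (98.8%), with a median of 0.30. Over all probe sets 48.7% had a negative slope. Within the 18 mg/kg group, replicate 2, with the narrowest gap, was the highest of the 3 arrays in 986 of the 1216 lower probe sets (81.1%), against 40.9% of all probe sets. It was the lowest of the 3 in 276 of the 595 higher ones (46.4%), against 32.5% of all.

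**Figure D2:**
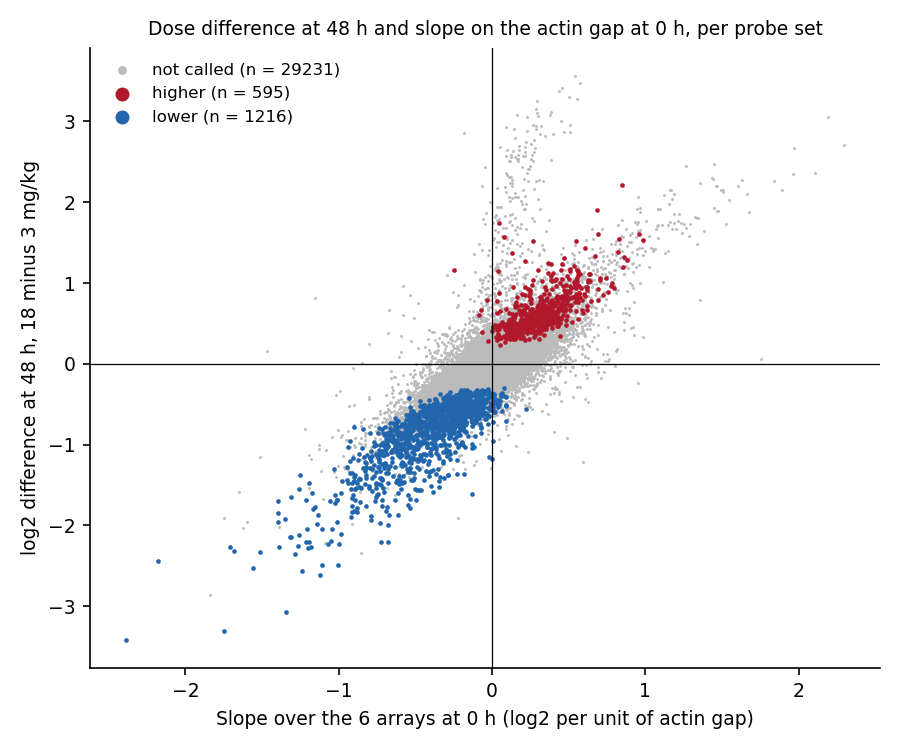
Each point is a probe set, with its slope on the actin gap over the 6 cortex arrays of 0 h (log2 per unit of gap, x axis) and its log2 difference at 48 h, 18 minus 3 mg/kg (y axis). The 595 called higher lie almost wholly at positive slopes and the 1216 called lower at negative slopes; an unlabelled column of points with log2 differences above 2 and slopes near 0 was not called.

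The largest rises comprised genes of several kinds. Dusp8, a phosphatase that turns off stress-activated MAP kinases, was 7.27, 5.29 and 7.24 in the 18 mg/kg arrays and 5.08, 5.05 and 5.09 in the 3 mg/kg arrays (log2 difference 1.53 ± 0.42 SE, adjusted p = 0.047). Replicate 2 stood close to the 3 mg/kg arrays, and the difference with that array alone, at a gap of at most 3, was 0.22 (adjusted p = 0.59). Ccdc25, a coiled-coil protein, was 6.84, 7.19 and 7.02 in the 18 mg/kg arrays and 5.38, 5.36 and 5.73 in the 3 mg/kg arrays (1.53 ± 0.34, adjusted p = 0.029). Other probe sets of Ccdc25 gave 0.22 (adjusted p = 0.38) and 0.003 (adjusted p = 0.99). All 3 high-dose arrays were alike in the called probe set, and its difference at a gap of at most 3 was 1.70. Usp27x, a deubiquitinase, likewise differed in all 3 arrays, at 8.33, 8.18 and 8.26 in the 18 mg/kg arrays and 7.05, 6.94 and 7.31 in the 3 mg/kg arrays (1.16 ± 0.23, adjusted p = 0.025). Its difference was 1.08 at a gap of at most 3 and 0.66 with the actin gap as a covariate. Bltp2, a lipid transfer protein, rose by 1.28 ± 0.25 (adjusted p = 0.025), and Myadm, a membrane raft protein, by 1.20 ± 0.34 (adjusted p = 0.049). With the actin gap as a covariate the differences were 0.59 for Bltp2 and 0.35 for Myadm. Their slopes on the gap at 0 h were 0.88 and 0.86. Liver means at 48 h were 9.96 for Bltp2 and 9.19 for Myadm, against 8.61 and 8.44 in the 3 mg/kg cortex arrays.

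Several of the other large rises were genes with a higher signal in liver than in cortex. Ehhadh, a peroxisomal fatty acid oxidation enzyme, was 4.58, 6.42 and 6.45 in the 18 mg/kg arrays and 4.55, 4.49 and 4.28 in the 3 mg/kg arrays (1.37 ± 0.36, adjusted p = 0.041), and lay between 11.1 and 11.6 in liver. Its level in 18 mg/kg replicate 1, the array with little hepatocyte signal, was next to those of the 3 mg/kg arrays, and with that array alone (hepatocyte mean under 8) the difference was 0.14 (adjusted p = 0.71). Ppp1r3b, a glycogen-targeting phosphatase subunit, differed by 1.27 ± 0.29 (adjusted p = 0.029) over all arrays and by 0.51 (adjusted p = 0.14) in the fit of arrays with a hepatocyte mean under 8. Krt18, a keratin of simple epithelia, differed by 1.15 ± 0.32 (adjusted p = 0.047) and by 0.45 (adjusted p = 0.32) in the same 2 fits. Cat, the catalase gene, was 9.70, 10.35 and 10.66 in the 18 mg/kg arrays and 9.33, 8.82 and 9.19 in the 3 mg/kg arrays (1.12 ± 0.25, adjusted p = 0.030), against a difference of 0.59 (adjusted p = 0.21) with hepatocyte means under 8. Aox1, an aldehyde oxidase, differed by 1.16 ± 0.31 (adjusted p = 0.041) and by 0.80 (adjusted p = 0.16) in those fits.

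Cldn2, a pore-forming tight junction protein, also had a higher signal in liver (9.31 to 10.41). It was 6.44, 5.29 and 6.54 in the 18 mg/kg arrays and 4.78, 4.44 and 4.33 in the 3 mg/kg arrays (1.57 ± 0.43, adjusted p = 0.045). Its difference with hepatocyte means under 8, which kept replicate 1 alone at 18 mg/kg, was 1.92. At a gap of at most 3, which kept replicate 2 alone at 18 mg/kg, it was 0.78. Over all probe sets called higher, 100 of 595 (16.8%) had a liver mean at 48 h more than 2 log2 units above the 3 mg/kg cortex mean. The share was 17 of 1216 (1.4%) among those called lower and 6.79% among all probe sets.

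Among the named genes called without overlap, by the brightest probe set of each, the largest falls were larger than the largest rises. Over all 14217 genes, called or not, differences ran from -2.25 to 3.47. Eif4ebp2, a brain-enriched repressor of cap-dependent translation, was 5.03, 6.73 and 5.01 in the 18 mg/kg arrays and 7.71, 7.84 and 7.97 in the 3 mg/kg arrays (-2.25 ± 0.54, adjusted p = 0.033). Scand1, a SCAN-domain nuclear protein, was 7.30, 8.39 and 7.37 in the 18 mg/kg arrays and 9.75, 10.27 and 9.72 in the 3 mg/kg arrays (-2.23 ± 0.40, adjusted p = 0.025). Hapln2, a link protein of the matrix at nodes of Ranvier, was 5.63, 7.17 and 5.22 in the 18 mg/kg arrays and 8.35, 8.33 and 7.96 in the 3 mg/kg arrays (-2.21 ± 0.55, adjusted p = 0.036). Other, dim probe sets of Hapln2 gave 0.19 (adjusted p = 0.31) and 0.20 (adjusted p = 0.42). In each of these 3 genes replicate 2 lay between the other 18 mg/kg arrays and the 3 mg/kg arrays. The 18 mg/kg array at a gap of at most 3 gave differences of -1.11 for Eif4ebp2, -1.52 for Scand1 and -1.05 for Hapln2, and the covariate fit gave -0.61, -0.89 and -0.56.

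The other large falls were in genes of varied function. Ap2s1, the small subunit of the clathrin adaptor, was 8.67, 9.58 and 7.76 in the 18 mg/kg arrays and 10.46, 10.77 and 10.77 in the 3 mg/kg arrays (-2.0 ± 0.36, adjusted p = 0.025). Adgrl1, a presynaptic latrophilin receptor, was 8.06, 8.15 and 7.16 in the 18 mg/kg arrays and 9.49, 9.74 and 9.76 in the 3 mg/kg arrays (-1.88 ± 0.31, adjusted p = 0.025). The differences at a gap of at most 3 were -1.08 for Ap2s1 and -1.52 for Adgrl1. Tpgs1, a tubulin polyglutamylase subunit, fell by 2.04, Mgst3, a microsomal glutathione transferase, by 1.88 and Anp32a, a phosphatase inhibitor and histone-binding protein, by 1.85 on the log2 scale. Eif5a, a translation elongation factor, fell by 1.82 and Ccdc85b, a transcriptional corepressor, by 1.80. With the actin gap as a covariate these 5 differences were -0.61 for Tpgs1, -0.67 for Mgst3, -0.49 for Anp32a, -0.92 for Eif5a and -0.37 for Ccdc85b.

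**Figure D3:**
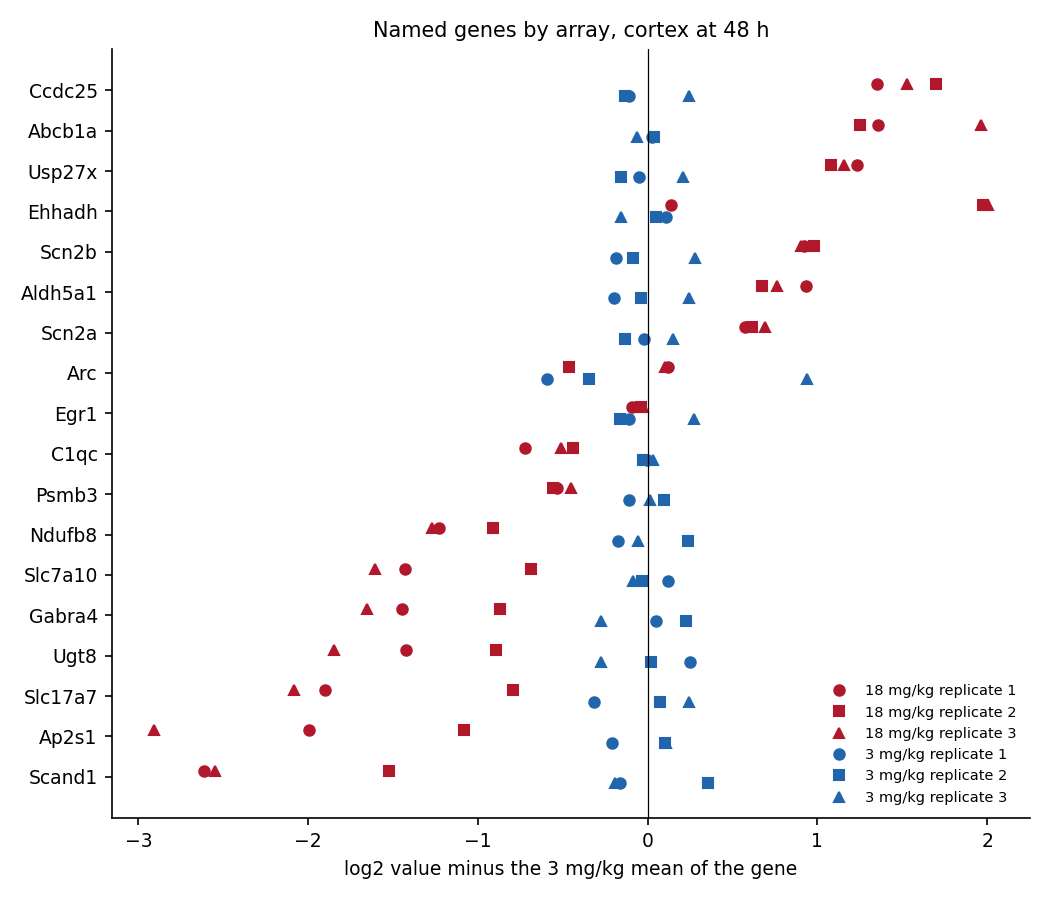
log2 value of 18 named genes in each array minus the gene's 3 mg/kg mean; red symbols are the 18 mg/kg arrays, drawn above the blue 3 mg/kg arrays, and shapes are replicates. In the falls from Slc7a10 down to Scand1 the square of 18 mg/kg replicate 2 lies nearest to 0, whereas Scn2a, Scn2b, Usp27x and Psmb3 have their 3 high-dose arrays close together.

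Voltage-gated sodium channels carry the rising phase of action potentials. Of 9 measured genes on that list, 2 rose, 0 fell and the median log2 difference was 0.25, against 327 rises and 575 falls among all 14217 genes (6.34% called). The list median was 0.05 with the actin gap as a covariate. The share over all genes is the background for every list count that follows. Scn2a, the sodium channel of pyramidal axon initial segments, was 11.49, 11.54 and 11.61 in the 18 mg/kg arrays and 10.90, 10.79 and 11.07 in the 3 mg/kg arrays (0.63 ± 0.091, adjusted p = 0.025). The high-dose arrays did not overlap the low-dose arrays and differed little from each other. The difference in Scn2a was 0.62 at a gap of at most 3 and 0.57 with hepatocyte means under 8, each with 1 array at 18 mg/kg. It was 0.54 with the actin gap as a covariate, where 0 probe sets passed. Scn2a passed in 13 of 21 alternative fits, which include those with 1 array at 18 mg/kg. Slc7a10, Adgrl1, Psmb3 and other named genes had the same count.

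Scn2b, a sodium channel beta subunit, was 12.00, 12.06 and 11.98 in the 18 mg/kg arrays and 10.89, 10.99 and 11.35 in the 3 mg/kg arrays (0.94 ± 0.20, adjusted p = 0.026). A second, dim probe set of Scn2b gave -0.26 (adjusted p = 0.11), so the 2 probe sets disagreed in direction. Scn1a, the sodium channel of fast-spiking interneurons, was 10.67, 10.93 and 11.04 in the 18 mg/kg arrays and 11.26, 11.09 and 11.27 in the 3 mg/kg arrays (-0.32, adjusted p = 0.25).

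Potassium, calcium and HCN channel genes set resting potential and transmitter release. Of 34 measured, 0 rose and 4 fell, with a median log2 difference of -0.07. Cacng3 and Cacng2, which traffic AMPA receptors, fell by 1.82 and 1.04. Kcnk1, a leak potassium channel, fell by 0.92 and Kcnj3, a G protein-gated inward rectifier, by 0.64. At a gap of at most 3 the differences were -0.91 for Cacng3, -1.60 for Cacng2, -0.45 for Kcnk1 and -0.44 for Kcnj3. Another probe set of Cacng2 gave 0.03 (adjusted p = 0.93). Others of Kcnj3 gave -0.11 (adjusted p = 0.71) and 0.07 (adjusted p = 0.80).

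GABA type A receptor subunits form the channel that RDX is known to block. Of 13 measured, 0 rose and 2 fell, with a median of -0.11. The median was 0.10 when only probe sets with a mean log2 of at least 6 were kept. Gabra4, an extrasynaptic alpha subunit, was 4.84, 5.42 and 4.63 in the 18 mg/kg arrays and 6.34, 6.51 and 6.01 in the 3 mg/kg arrays (-1.32 ± 0.33, adjusted p = 0.037). Gabra3, another alpha subunit, was 4.33, 4.35 and 4.06 in the 18 mg/kg arrays and 5.11, 5.25 and 4.87 in the 3 mg/kg arrays (-0.83 ± 0.21, adjusted p = 0.038). In both subunits the groups were apart, and the differences with the actin gap as a covariate were -0.28 for Gabra4 and -0.24 for Gabra3. Both had a low signal, and in the liver arrays of 48 h Gabra4 lay between 4.2 and 4.6 and Gabra3 between 3.94 and 4.61.

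Genes of GABA synthesis, uptake and anchoring included 2 rises and 1 fall among 13 measured, with a median of 0.21. Aldh5a1, which degrades the GABA breakdown product succinic semialdehyde, was 9.37, 9.11 and 9.20 in the 18 mg/kg arrays and 8.24, 8.40 and 8.68 in the 3 mg/kg arrays (0.79 ± 0.15, adjusted p = 0.025). Its difference at a gap of at most 3 was 0.67. Dimmer probe sets of Aldh5a1 gave -0.14 (adjusted p = 0.61) and -0.01 (adjusted p = 0.97). By their brightest probe sets, the 2 subunits of the GABA type B receptor, which act as a pair, changed in opposite directions. Gabbr2 rose by 0.72 ± 0.16 (adjusted p = 0.030) and Gabbr1 fell by 0.49 ± 0.13 (adjusted p = 0.046). With the actin gap as a covariate the differences were 0.40 for Gabbr2 and -0.27 for Gabbr1. At a gap of at most 3 they were 0.48 and -0.32, and the slopes on the gap at 0 h were 0.35 and -0.26. The 5 probe sets of Gabbr1 ranged from -1.29 (adjusted p = 0.025) to 0.08 (adjusted p = 0.81). A second, dim probe set of Gabbr2 gave -0.20 (adjusted p = 0.24). Gad1 was 12.73, 12.74 and 12.61 in the 18 mg/kg arrays and 12.45, 12.35 and 12.41 in the 3 mg/kg arrays (0.29, adjusted p = 0.078). A second, dim probe set of Gad1 was called in the opposite direction, at 4.07, 4.02 and 4.07 in the 18 mg/kg arrays and 4.76, 4.79 and 4.37 in the 3 mg/kg arrays (-0.59 ± 0.16, adjusted p = 0.043).

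Of 21 glutamate receptor genes, 1 rose and 0 fell, with a median of 0.07. Grik1, a kainate receptor subunit, was 6.17, 6.15 and 6.67 in the 18 mg/kg arrays and 5.46, 5.57 and 5.63 in the 3 mg/kg arrays (0.78 ± 0.17, adjusted p = 0.026). Gria2, the AMPA receptor subunit that limits calcium entry, had a difference of -0.15 (adjusted p = 0.41). A second bright probe set of Gria2 went the other way, at 11.61, 10.27 and 12.04 in the 18 mg/kg arrays and 10.48, 10.70 and 10.50 in the 3 mg/kg arrays (0.75, adjusted p = 0.16). Among 25 vesicle and exocytosis genes 0 rose and 2 fell (median 0.08), namely Amph, an endocytic adaptor, at -0.77 and Rims1, an active zone scaffold, at -0.89. Among 19 postsynaptic scaffold and kinase genes 2 rose and 0 fell. These were Dlgap1, a postsynaptic density scaffold, at 0.42 and Homer2, a glutamate receptor linker, at 1.01, whose arrays overlapped. The difference in Homer2 was 0.31 with the actin gap as a covariate and 0.08 (adjusted p = 0.93) at a gap of at most 3.

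Pyramidal neuron markers included 1 rise and 1 fall among 19 measured, with a median of -0.08. Slc17a7, the vesicular glutamate transporter, was 7.81, 8.92 and 7.63 in the 18 mg/kg arrays and 9.40, 9.79 and 9.95 in the 3 mg/kg arrays (-1.59 ± 0.37, adjusted p = 0.030), and -0.46 with the actin gap as a covariate. Cux2, an upper-layer transcription factor, rose by 1.04 ± 0.28 (adjusted p = 0.046) and had 0.32 with the covariate and 0.58 at a gap of at most 3. A second probe set of Cux2 gave 0.14 (adjusted p = 0.72). Camk2a, a plasticity kinase of these neurons, did not pass (-1.32, adjusted p = 0.15), and its 4 probe sets ranged from -1.32 to 0.61. In a bulk sample fewer cells of a type and less RNA per cell cannot be told apart.

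Interneuron markers and neuropeptides included 0 rises and 2 falls among 16 measured (median -0.16). Cck, the neuropeptide cholecystokinin, was 12.48, 12.07 and 12.39 in the 18 mg/kg arrays and 12.67, 12.80 and 12.72 in the 3 mg/kg arrays (-0.42 ± 0.12, adjusted p = 0.049). The difference in Cck was -0.66 at a gap of at most 3. Htr3a, a serotonin-gated channel, fell by 0.53 at a low signal. Of 16 striatal markers, which could enter with the dissection, 1 fell, Adcy5, an adenylyl cyclase, at -0.99, and 0 rose. In Adcy5, 18 mg/kg replicate 2 was 8.20, against 8.23 to 8.50 in the 3 mg/kg arrays. The difference in Adcy5 was -0.21 at a gap of at most 3 and -0.36 with the actin gap as a covariate. A second, dim probe set of Adcy5 gave -0.01 (adjusted p = 0.98). Of 15 hippocampus, thalamus and choroid plexus markers, 0 passed in limma and 3 had an unadjusted p under 0.05.

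Immediate early genes are switched on within minutes of neuronal firing. Of 32 measured, 1 rose and 0 fell, with a median of -0.05. Nr4a2, an orphan nuclear receptor, was 7.96, 7.09 and 8.09 in the 18 mg/kg arrays and 7.01, 6.95 and 6.99 in the 3 mg/kg arrays (0.73 ± 0.20, adjusted p = 0.046). Replicate 2 was near the 3 mg/kg arrays, and the difference with it alone, at a gap of at most 3, was 0.11 (adjusted p = 0.86). Arc, a regulator of AMPA receptor endocytosis, was 7.88, 7.29 and 7.86 in the 18 mg/kg arrays and 7.16, 7.41 and 8.69 in the 3 mg/kg arrays (-0.08, adjusted p = 0.95). Fos was 7.16, 7.07 and 7.38 in the 18 mg/kg arrays and 6.81, 7.69 and 8.93 in the 3 mg/kg arrays (-0.61, adjusted p = 0.60). In both Arc and Fos, 3 mg/kg replicate 3 was the highest of the 6 arrays and the groups overlapped. Egr1, a zinc finger factor, differed by -0.05 (adjusted p = 0.91), Junb by -0.72 (adjusted p = 0.074) and Nr4a1 by -0.61 (adjusted p = 0.16).

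Of 18 circadian clock genes 0 passed in limma, with 4 at an unadjusted p under 0.05. The clock gene with the smallest p was Bhlhe40, a repressor, at -0.93 (adjusted p = 0.060). Among 15 genes induced by glucocorticoids 1 rose. This was Sdc4, a heparan sulfate proteoglycan, at 0.61 ± 0.12 (adjusted p = 0.025), which lay between 11.4 and 11.7 in liver and had 0.38 (adjusted p = 0.21) with hepatocyte means under 8. Sgk1, a kinase induced by corticosterone, had 0.30 (adjusted p = 0.22).

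Among glia, microglia showed the most falls for the number measured. Of 20 microglia and macrophage markers 5 fell and 0 rose (25% called, against 6.34% of all genes), while the median was -0.04. The mean log2 signal of the whole list was 7.38, 7.56 and 7.63 in the 18 mg/kg arrays and 7.71, 7.65 and 7.64 in the 3 mg/kg arrays. C1qc, a chain of complement C1q, was 7.27, 7.55 and 7.48 in the 18 mg/kg arrays and 7.98, 7.96 and 8.02 in the 3 mg/kg arrays (-0.56 ± 0.10, adjusted p = 0.025). C1qa, another chain, was 8.18, 8.62 and 8.24 in the 18 mg/kg arrays and 9.18, 9.14 and 9.48 in the 3 mg/kg arrays (-0.92 ± 0.20, adjusted p = 0.027). Both had 18 mg/kg arrays wholly below the 3 mg/kg arrays. Trem2, a lipid-sensing receptor, fell by 0.57 and Tyrobp, its signalling adaptor, by 0.41, and C1qb, the remaining chain and the fifth marker to fall, had -0.56 (adjusted p = 0.043). C1qb was named after its values were seen.

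The 5 genes belong to one complement complex and one receptor complex. At a gap of at most 3 the differences were -0.44 (adjusted p = 0.085) for C1qc, -0.65 (adjusted p = 0.13) for C1qa, -0.53 (adjusted p = 0.12) for Trem2 and -0.50 (adjusted p = 0.051) for Tyrobp. With the actin gap as a covariate they lay at -0.41 for C1qc, -0.43 for C1qa, -0.37 for Trem2 and -0.35 for Tyrobp. Markers of the same cells outside these complexes did not pass: Cx3cr1, the fractalkine receptor, had 0.02, P2ry12, a purine receptor of resting microglia, 0.08, and Csf1r, the receptor for their growth factor, 0.52 (adjusted p = 0.11), all 3 named after their values were seen.

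Astrocyte markers included 1 rise and 1 fall among 17 measured (median 0.04). Slc7a10, a serine and glycine transporter, was 7.03, 7.78 and 6.86 in the 18 mg/kg arrays and 8.58, 8.43 and 8.38 in the 3 mg/kg arrays (-1.24 ± 0.20, adjusted p = 0.025). The difference in Slc7a10 was -0.69 at a gap of at most 3. Gja1, the main gap junction protein of astrocytes, rose by 0.42 ± 0.10 (adjusted p = 0.033). Dim probe sets of Gja1 gave -1.18 (adjusted p = 0.079) and -0.05 (adjusted p = 0.82). Gfap, the intermediate filament of reactive astrocytes, was 11.78, 11.43 and 11.91 in the 18 mg/kg arrays and 10.84, 10.78 and 11.31 in the 3 mg/kg arrays. The groups did not overlap in Gfap, yet it did not pass (0.73 ± 0.30, adjusted p = 0.14), and with the actin gap as a covariate its sign turned (-0.06).

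Oligodendrocyte and myelin genes included 0 rises and 2 falls among 23 measured (median -0.08). Ugt8, which makes the myelin lipid galactosylceramide, was 7.90, 8.43 and 7.48 in the 18 mg/kg arrays and 9.57, 9.35 and 9.05 in the 3 mg/kg arrays (-1.39 ± 0.30, adjusted p = 0.028). Cryab, a small heat shock protein of oligodendrocytes, was 9.43, 9.67 and 9.45 in the 18 mg/kg arrays and 10.01, 10.09 and 10.18 in the 3 mg/kg arrays (-0.58 ± 0.14, adjusted p = 0.036). Cryab had a slope of 0.07 on the gap at 0 h, opposite in sign to its difference, whereas that of Ugt8 was -0.77. The probe sets of Mbp, a main myelin protein, disagreed. The brightest had -0.25 (adjusted p = 0.088) and a second 0.24 (adjusted p = 0.78). The remaining one held the largest fall of all called probe sets, at 6.82, 9.03 and 6.47 in the 18 mg/kg arrays and 11.36, 10.95 and 10.25 in the 3 mg/kg arrays (-3.41 ± 0.88, adjusted p = 0.038), with a slope of -2.39 on the gap at 0 h.

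Of 21 endothelial and pericyte markers 2 rose and 1 fell, with a median of 0.00. Abcb1a, the P-glycoprotein efflux pump of the blood-brain barrier, was 8.23, 8.13 and 8.84 in the 18 mg/kg arrays and 6.90, 6.91 and 6.81 in the 3 mg/kg arrays (1.52 ± 0.38, adjusted p = 0.036), a 2.88-fold difference. All 3 high-dose arrays stood more than 1 log2 unit above the low-dose arrays. The difference in Abcb1a was 1.24 with the actin gap as a covariate, 1.25 (adjusted p = 0.13) at a gap of at most 3 and 1.36 (adjusted p = 0.17) with hepatocyte means under 8, and a second probe set gave 0.30 (adjusted p = 0.20). Tie1, an endothelial receptor kinase, rose by 0.70 ± 0.17 (adjusted p = 0.034), and Pecam1, an endothelial adhesion molecule, fell by 0.49 ± 0.097 (adjusted p = 0.025). Of 15 meningeal and matrix genes 1 rose, Aldh1a2, a retinoic acid synthesising enzyme, at 0.41 (adjusted p = 0.030). Of 10 blood cell genes 0 passed in limma, with 3 at an unadjusted p under 0.05, and Hbb, a globin, had -0.53 (adjusted p = 0.083).

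Housekeeping machinery leaned to lower values. Of 31 oxidative phosphorylation subunits 5 fell, 1 rose and 28 had a difference below 0, with a median of -0.27. Over all 14217 genes 575 fell, 327 rose (6.34% called) and 7053 had a difference below 0, with a median of 0.00. Ndufb8, of complex I, was 7.66, 7.97 and 7.61 in the 18 mg/kg arrays and 8.71, 9.12 and 8.82 in the 3 mg/kg arrays (-1.14 ± 0.22, adjusted p = 0.025). Cyc1, cytochrome c1 of complex III, was 10.80, 11.08 and 10.68 in the 18 mg/kg arrays and 11.38, 11.45 and 11.32 in the 3 mg/kg arrays (-0.53 ± 0.10, adjusted p = 0.025). Both were lower in every high-dose array. Uqcrfs1, the Rieske protein of complex III, and Ndufa2, of complex I, fell by 0.56 and 0.52. The other 2 calls, both in complex I and named after their values were seen, were Ndufa5 at -0.64 and Ndufs1, the one rise, at 0.50. The list median was -0.06 with the actin gap as a covariate and -0.20 at a gap of at most 3.

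Of 26 proteasome subunits 4 fell, 0 rose and 18 lay below 0, with a median of -0.19. Psmb3, a core beta subunit, was 10.64, 10.62 and 10.73 in the 18 mg/kg arrays and 11.07, 11.27 and 11.19 in the 3 mg/kg arrays (-0.51 ± 0.090, adjusted p = 0.025). The difference in Psmb3 was -0.56 at a gap of at most 3. Psmb1, Psma5 and Psma3 fell by 0.63, 0.46 and 0.45. Of 19 ribosomal protein genes 2 fell, 0 rose and 16 lay below 0, with a median of -0.26. Rpl18 fell by 0.77 and Rps15 by 0.72, and the list median was -0.04 with the actin gap as a covariate.

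**Figure D4:**
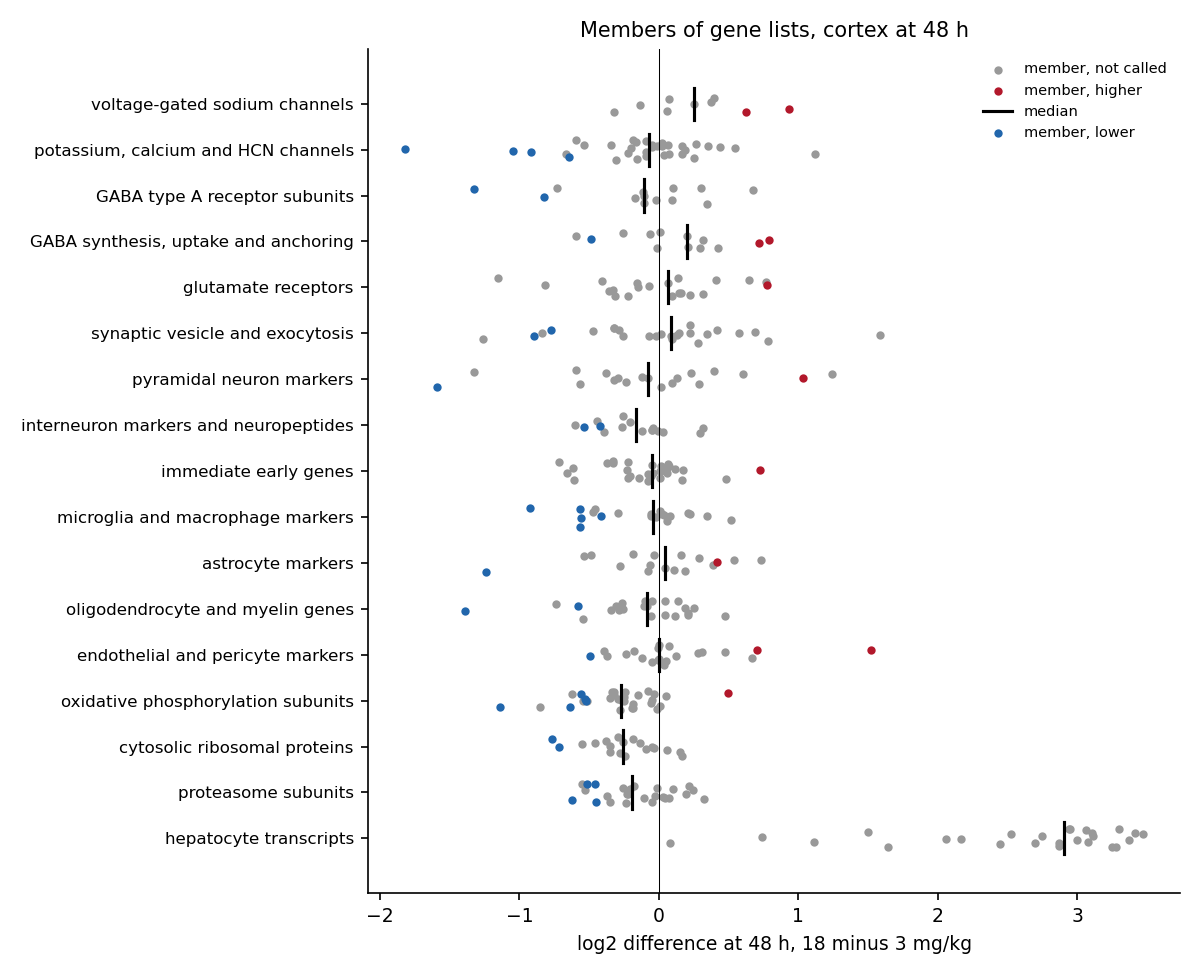
log2 difference at 48 h (18 minus 3 mg/kg) of each measured member of 17 gene lists, with members called higher in red, called lower in blue and not called in grey, and the list median as a black bar. The medians lie between -0.27 for oxidative phosphorylation subunits and 0.25 for sodium channels, except that of hepatocyte transcripts, which lies at 2.91 with no member called.

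In stress, immune and splicing lists the share of members called lay between 0% and 10.5%, against 6.34% of all genes. Of 16 heat shock genes 1 fell, Cryab, described above. Of 22 unfolded protein response genes 1 fell, Calr, a calcium-binding chaperone, at -0.69. Of 16 NRF2 antioxidant targets 1 rose, Cat, described above. Of 20 chemokine, cytokine and NF-kB feedback genes 0 passed in limma, with 2 at an unadjusted p under 0.05, and Tgfb1, an anti-inflammatory cytokine, had -0.33 (adjusted p = 0.061). Of 18 interferon-induced genes 0 passed, with 2 at an unadjusted p under 0.05, and Rsad2, an antiviral enzyme, had -0.60 (adjusted p = 0.089). Of 19 p53, apoptosis and cell cycle genes 2 fell, Gadd45a, a DNA damage sensor, by 0.89 and Ccnd2, a cyclin, by 1.17. Ccnd2 was 6.95, 6.16 and 7.20 in the 18 mg/kg arrays and 7.99, 8.08 and 7.75 in the 3 mg/kg arrays. It was lowest in replicate 2, and its difference at a gap of at most 3 was -1.78. Among 26 splicing genes Srsf1, a splicing factor, rose by 0.67 and Srsf7, another of its family, fell by 0.80. A second bright probe set of Srsf1 gave -0.07 (adjusted p = 0.85).

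Probe sets of the same gene often differed in call. Of 1347 genes with a called probe set, 776 had more than 1 probe set, and in 707 of these a single one was called. Among genes with several probe sets and a fall, only a dimmer probe set was called in 394 of 558 (70.6%). Among those with a rise this was so in 56 of 223 (25.1%). In 5 genes probe sets were called in both directions.

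The same dose contrast at earlier times was set beside 48 h in the same fit, with other arrays but a shared estimate of spread. limma called 3057 probe sets (9.85%) at 4 h and 0 (0%) at 24 h, where 4338 had an unadjusted p under 0.05. Of the 595 probe sets higher at 48 h, 561 had a positive difference at 4 h and 551 at 24 h. Of the 1216 lower, 1124 had a negative difference at 4 h and 1176 at 24 h. Over all 31042 probe sets, 22345 had the sign of 48 h at 4 h and 22128 at 24 h. The difference in mean actin gap between 18 and 3 mg/kg was 1.58 at 4 h, 1.21 at 24 h and 1.64 at 48 h, so the gap was wider at the high dose at each time. At 4 and 48 h every 18 mg/kg array had a wider actin gap than every 3 mg/kg array, so dose and gap cannot be told apart there. The covariate fits above cannot divide the differences between them, and the part of the gap was not tested.

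**Figure D5:**
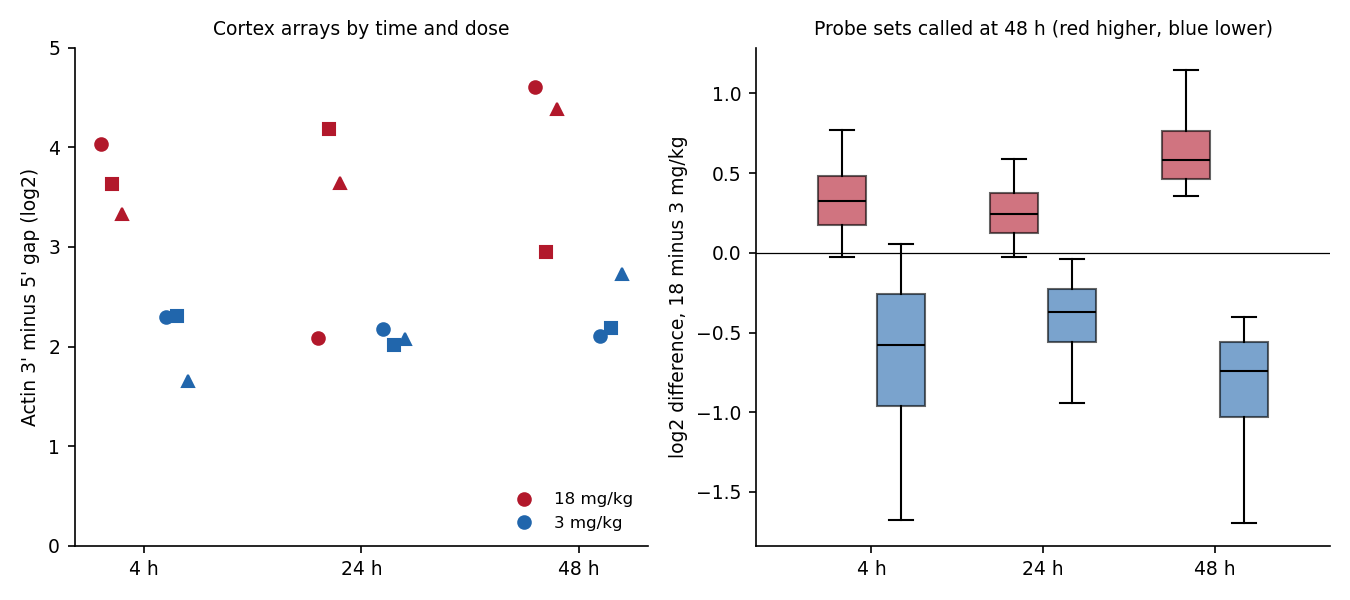
Left, actin gap of each later cortex array (log2, y axis) by time, with 18 mg/kg in red and 3 mg/kg in blue. Right, log2 dose difference at each time of the 595 probe sets called higher (red) and the 1216 called lower (blue) at 48 h, as boxes of quartiles with the median and whiskers from percentile 5 to percentile 95; the boxes of both classes lie on the same side of 0 at 4, 24 and 48 h, while whiskers of the higher class at 4 and 24 h and of the lower class at 4 h cross 0.

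Whether the dose difference at 48 h departed from the mean of those at 4 and 24 h was tested directly. No probe set passed in limma (0 of 31042, 0%). An unadjusted p under 0.05 was found for 1813, and the smallest adjusted p was 0.0503. That smallest value belonged to Scn2a and to an unnamed probe set. Scn2a had dose differences of -0.28 at 4 h, -0.13 at 24 h and 0.63 at 48 h, and the contrast of 48 h with the earlier times was 0.83 ± 0.11 (adjusted p = 0.0503). Over the alternatives run for that contrast, the value in Scn2a lay between 0.77 and 0.91 and its limma adjusted p between 0.014 and 0.33. No dose difference is therefore called particular to 48 h.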

How the data were processed

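RNA from cortex was labelled with biotin and hybridised to Affymetrix rat arrays, per the labels' protocols. The authors deposited log2 values of 31099 probe sets in 48 arrays, made with RMA and Partek per the submitters' processing notes, which give no version or setting. RMA makes array distributions alike, so a shift shared by most transcripts would be reduced. Deposited values were used without further scaling. The 57 AFFX probe sets were left out of tests, which left 31042. The platform annotation supplied with the values named 1 gene for 20826, several for 436 and none for 9780. The number of arrays limits precision, and dim probe sets were kept.

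limma 3.58.1 (R 4.3.3) was fitted to the 18 cortex arrays of 4, 24 and 48 h with a mean per group and moderated variances. The contrast was 18 minus 3 mg/kg at 48 h, two-sided, with Benjamini-Hochberg adjustment over all 31042 probe sets and 0.05 as the threshold. "Rose", "fell" and "passed" refer to that threshold. Values are differences ± SE. A second contrast set the 48 h difference against the mean of those at 4 and 24 h. The fit was tested on simulated data.

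Each gene's value was that of its brightest probe set (highest mean over the fitted arrays) among those with 1 symbol. Named genes were the 12 largest rises and 12 largest falls without overlap, up to 4 passing members of each list or its smallest p, and fixed genes; LOC, RGD and MGC names were passed over and only some are printed. Members and lists were chosen with earlier results of these data known, so lists received counts and medians and no test. Alternatives covered scaling, dim probe sets, arrays fitted, variance moderation, array weights, replicate numbers, gaps, hepatocyte signal and leaving out each array.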

Additional observations from a re-analysis of the deposited data

How the results depend on the processing

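Called probe sets (1811, with 595 higher and 1216 lower) changed as follows under other settings, by limma. There were 410 (109 higher, 301 lower) with all 24 cortex arrays, 1046 (385, 661) with 1 probe set per gene, which tests fewer, 5910 (2629, 3281) with array weights and 974 (405, 569) with a replicate block. The replicate numbers did not pair the arrays (correlations of deviations between same-numbered arrays -0.38, -0.13 and -0.20). With the hepatocyte mean as a covariate 969 were higher, and with hepatocyte means under 8 (1 of 3 arrays at 18 mg/kg) 560 were lower. With an actin gap of at most 3 there were 1083, with 502 lower. Counts were 0 with the 6 arrays alone and with the actin gap, the GAPDH gap, or the actin gap and hepatocyte mean as covariates (6191, 2072, 2353 and 1177 at an unadjusted p under 0.05). Leaving out 1 array gave 0 to 5774 called, 0 to 2637 higher and 0 to 3137 lower. Of the 1811, 1798 kept their direction with the GAPDH gap, 1766 with the actin gap and hepatocyte mean together, and all those tested under every other alternative run. Fits that keep the same group means, or leave out 1 array from groups that do not overlap, cannot reverse a direction. The contrast of 48 h with the earlier times called 1 (mean log2 of at least 6, 1 probe set per gene, all 24 arrays), 2 (trend and robust moderation, array weights), 6 (GAPDH gap) and 0 to 292 when 1 array was left out, the highest without 18 mg/kg replicate 2. It could not be fitted with an actin gap of at most 3, which left no 18 mg/kg array at 4 h. Gap differences kept their sign in all alternatives run. Reversed values, whose cause was not tested, were Gfap -0.065 (actin gap), Alb -1.56 (hepatocyte mean), -0.79 (both covariates) and -2.33 (hepatocyte means under 8), Egr1 0.017 (hepatocyte mean) and 0.084 (without 3 mg/kg replicate 3), Anp32a 0.042 and Camk2a 0.63 (both covariates), and Arc 0.029 (hepatocyte mean), 0.12 (hepatocyte means under 8), 0.11 (without 18 mg/kg replicate 2) and 0.39 (without 3 mg/kg replicate 3). Alb is itself among the transcripts of the hepatocyte mean, so its values in fits that use that mean are partly built in. Median centring moved the split to 526 higher and 1483 lower.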

Other observations

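Among the 1811 called probe sets, 29 of the lower and 7 of the higher ones had a slope on the actin gap at 0 h opposite to their difference at 48 h. Those named here were chosen after their values were seen. Paqr6, a progestin receptor family member, was 7.41, 7.34 and 7.26 in the 18 mg/kg arrays and 7.93, 7.90 and 7.96 in the 3 mg/kg arrays (-0.59 ± 0.11, limma adjusted p = 0.025), with a slope of 0.01. Trex1, a cytosolic DNA exonuclease, was 7.15, 7.12 and 7.0 in the 18 mg/kg arrays and 7.39, 7.51 and 7.52 in the 3 mg/kg arrays (-0.38 ± 0.078, limma adjusted p = 0.025), with a slope of 0.06. Hip1, an endocytic adaptor, was 6.67, 6.10 and 6.29 in the 18 mg/kg arrays and 7.05, 7.14 and 7.0 in the 3 mg/kg arrays (-0.71 ± 0.16, limma adjusted p = 0.030), with a slope of 0.09. In each of these genes every 18 mg/kg array lay below every 3 mg/kg array.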
